A study of Mus musculus with 8 samples.

Results

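Zscan4 genes and their companions are switched on in the mouse embryo at the 2-cell stage and are seen again, in brief bursts, in a small share of cultured embryonic stem (ES) cells. They were followed here through 10 gene names on a whole-genome expression array: Zscan4c, Zscan4f, Dub1, Dub1a, Usp17l5, Gm8300, Gm2022, Tcstv1, Tcstv3 and AF067061. Every probe that is not a control and carries 1 of these names was taken, which gave 17 of 55681 probes and 10 of 36406 genes. The names were picked because earlier work on the same arrays had shown that their measured levels differed widely between untreated replicates, so those levels are described below without a test.

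The arrays compared mouse E14Tg2A.4 ES cells that were left untreated with the same line treated with retinoic acid (RA) for 72 h, 4 arrays of each. The methods of the study describe 1 µM all-trans RA added to medium without leukemia inhibitory factor, so the RA arm also differs in that factor if the untreated cells kept it. E14 is a single established line. The methods call the replicates biological, and neither they nor the labels say whether each was a separate culture, so the p-values given for other genes measure the spread between these samples. Levels are log2 values from which the 75th percentile of the array was subtracted, so 0 is the intensity that 25% of spots exceed, and a difference of 1 is a 2-fold difference.

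In the embryo the 2-cell stage is when the mouse genome is first broadly transcribed. ES cells that enter the corresponding state, often called 2-cell-like cells, transcribe the same gene families together and lose much of their pluripotency protein for a time. Zscan4 proteins carry a SCAN domain and zinc fingers and are known for telomere lengthening and genome stability in ES cells. Dub1, Dub1a and Usp17l5, now named Usp17la, Usp17lb and Usp17lc, encode deubiquitinating enzymes. Gm8300 and Gm2022 are relatives of the translation initiation factor eIF1A, and Tcstv1, Tcstv3 and AF067061 belong to the gene group named 2-cell stage variable.

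All of these genes lie in clusters of near-identical copies, and the sequences show how far a value belongs to 1 copy. The brightest Zscan4c probe and the probe for Zscan4a, a neighbouring copy that is not among the 10, were identical at 56 of 58 aligned bases. Their last 30 aligned bases are given 5′ to 3′, with the bases that differ in capitals.
Zscan4c (mm9, chr7:11595751-11595810, plus strand): tgcattgcctcttcagacatctcatGCcat
Zscan4a (mm9, chr7:11379679-11379738, minus strand): tgcattgcctcttcagacatctcatATcat
The probes for Dub1a and Usp17l5, in contrast, matched at 42 of 59 aligned bases, with no identical run longer than 10. The first 30 aligned bases are shown in the same way.
Dub1a (mm9, chr7:111988826-111988885, minus strand): gaacttgatcGAcTCAGtgGtgcaattgtg
Usp17l5 (mm9, chr7:110567420-110567479, plus strand): gaacttgatcTGcCTGCtgAtgcaattgtg
The Usp17l5 probe was in turn identical at 56 of 60 bases to that for Dub2a, another deubiquitinase gene outside the 10. The coordinates are those of the whole 60-base probes. Of the 17 probes, 5 list RefSeq transcripts of more than 1 gene, among them the Zscan4f probe, which lists transcripts of 4 Zscan4 genes. Values of near-identical copies can share signal and cannot be told apart here.

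The promoters of these copies are close to each other as well. RefSeq start sites on GRCm38.p6 gave the 100 bases before the start for 6 of the 10 genes. The windows of the 5 Zscan4 and deubiquitinase genes are printed to show how alike the copies are, with the TATAAA motif in capitals.
Zscan4c (chr7:11005645-11005744, plus strand): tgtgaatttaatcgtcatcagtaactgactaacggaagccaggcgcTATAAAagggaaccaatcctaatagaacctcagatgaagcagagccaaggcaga
Zscan4f (chr7:11397815-11397914, plus strand): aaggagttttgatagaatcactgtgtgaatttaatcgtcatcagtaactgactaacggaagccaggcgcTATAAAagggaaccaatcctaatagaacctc
Dub1 (chr7:104856916-104857015, plus strand): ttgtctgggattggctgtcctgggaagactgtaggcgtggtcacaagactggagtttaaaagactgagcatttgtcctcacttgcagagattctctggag
Dub1a (chr7:104842584-104842683, minus strand): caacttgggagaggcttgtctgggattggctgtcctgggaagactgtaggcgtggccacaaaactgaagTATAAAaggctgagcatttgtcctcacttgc
Usp17l5 (chr7:103416596-103416695, plus strand): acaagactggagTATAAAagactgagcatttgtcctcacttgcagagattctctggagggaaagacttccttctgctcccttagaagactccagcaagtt
The Zscan4c and Zscan4f windows overlapped over 77 bases when aligned and were identical at all 77. Dub1 and Dub1a were identical at 80 of 85 aligned bases, and Dub1a and Usp17l5 at 40 of 43. TATAAA, searched on both strands, was in 4 of the 6 windows and in 5.6% of 32851 windows of the same length in the table. The Dub1 window and that of AF067061 did not hold these letters. A match is a description of the sequence only, and the copies are not independent of each other.

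Among untreated cells, all 10 genes were high on the array of replicate 3, intermediate on replicate 2 and low on replicates 1 and 4. Zscan4c, the copy that ES cells mainly transcribe, had levels of 1.73, 4.14, 5.52 and 0.99 in untreated replicates 1 to 4 and of 4.33, 4.69, 5.06 and 3.15 in RA replicates 1 to 4. Its highest untreated replicate was 23.0-fold above its lowest, and its highest RA replicate 3.76-fold above the lowest. The RA values lay inside the untreated range, so the groups overlapped. The other 2 probes of Zscan4c gave 18- and 23.5-fold over the untreated replicates, with the same order of arrays.

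Zscan4f, which encodes a close relative of Zscan4c, stood at 2.56, 4.83, 5.86 and 1.76 in untreated replicates 1 to 4 and at 5.42, 5.47, 5.57 and 4.17 with RA. Its RA replicates 1 to 3 were within 0.15 of each other, and only replicate 4 was apart. In bulk RNA a change in the share of cells that transcribe a gene cannot be told apart from a change in RNA per cell.

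The deubiquitinase genes followed the same order of arrays. Dub1 had levels of -1.75, -0.72, 2.01 and -2.53 in untreated replicates 1 to 4 and of 1.10, 0.85, 1.07 and -0.41 with RA. Dub1a had levels of -1.84, -0.39, 2.12 and -2.38 in untreated replicates and of 0.78, 0.71, 0.81 and -0.73 with RA. Both were highest on untreated replicate 3, and untreated replicate 2 lay nearer to the low arrays than it did for the Zscan4 genes. Usp17l5 had levels of -3.41, -2.18, -0.02 and -3.79 in untreated replicates and of -1.66, -1.62, -1.39 and -2.94 with RA, a 13.7-fold range without treatment that was the narrowest of the 10. A second Dub1 probe, which reads another stretch of the same transcript 310 bases upstream, did not show the pattern. It stayed between -4.32 and -3.64 on untreated arrays and between -4.85 and -4.17 with RA, was well above background on all 8 arrays, and its correlation with Zscan4c was -0.43.

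The eIF1A relatives had the same order of untreated arrays. Gm8300 had levels of -0.69, 1.33, 3.12 and -1.66 in untreated replicates 1 to 4 and of 0.70, 1.00, 1.12 and -0.57 with RA. Gm2022 had levels of 1.99, 4.48, 5.98 and 1.52 in untreated replicates and of 3.07, 3.72, 4.17 and 1.91 with RA. With these probes, the brightest of each gene, untreated replicates 2 and 3 were above all RA replicates, and untreated replicates 1 and 4 were below RA replicates 1 to 3. With the other 3 probes of the pair untreated replicate 2 lay below the highest RA replicate, at 2.43 against 2.65 for Gm2022 and at 1.01 against 1.12 and 0.74 against 0.77 for Gm8300. The order of the untreated arrays was the same with all 5 probes.

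Tcstv1 had levels of -3.60, -2.22, 0.18 and -5.20 in untreated replicates and of -1, -1.74, -2.29 and -2.36 with RA. On untreated replicate 4 its probe was not well above background, the only brightest probe and array of the 10 genes where this was so. Untreated replicate 3 read 41.7-fold above replicate 4, a ratio taken against a background value. It was 13.8-fold above replicate 1, the lowest array with a measured level. Tcstv3 had levels of -2.65, 0.06, 1.41 and -3.35 in untreated replicates and of 0.68, 0.83, 0.46 and -0.68 with RA. AF067061 had levels of 4.04, 6.26, 7.16 and 3.08 in untreated replicates and of 6.11, 6.35, 6.41 and 4.95 with RA. For both, RA replicates 1 to 3 were close to each other and above untreated replicates 1 and 4.

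**Figure D1:**
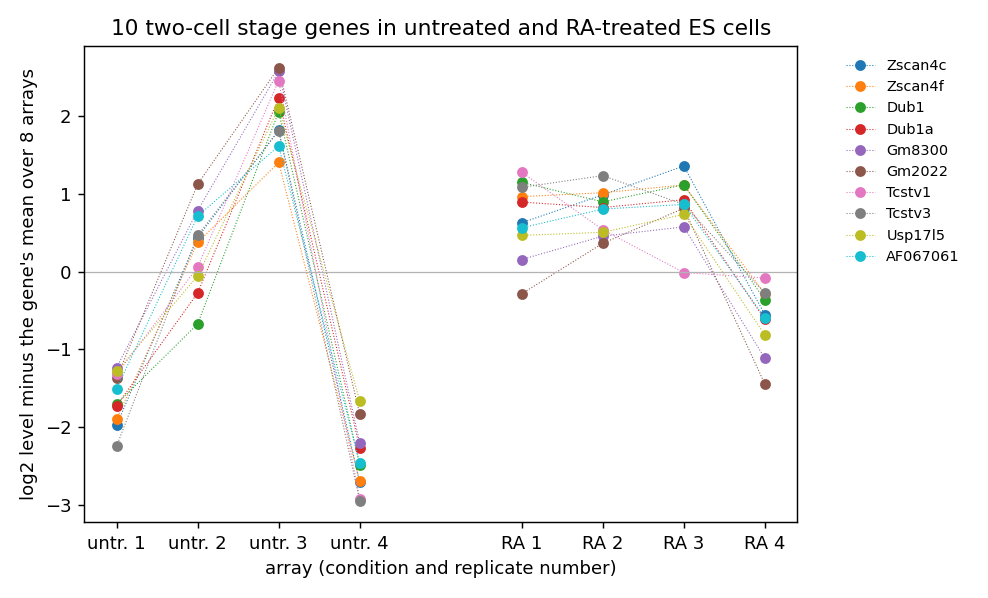
Level of each of the 10 genes (brightest probe, log2, minus the gene's own mean over 8 arrays) on the 4 untreated and 4 RA arrays; dotted lines only join the points of 1 gene. All 10 genes are highest on untreated replicate 3 and lowest on untreated replicate 4 within the untreated arrays, and all 10 are lowest on RA replicate 4 within the RA arrays.

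The order 3, 2, 1, 4 of the untreated replicates was shared by all 10 genes, and by 623 of 21797 genes with signal well above background on every untreated array (2.86%). RA replicate 4 was the lowest RA array for all 10 genes and for 23.9% of 20401 genes well above background on all 8 arrays. Replicate 4 was thus the lowest in both conditions. Zscan4c had the order 3, 2, 1, 4 with RA as well, while Tcstv1 did not. The correlation between members, over the 8 deviations from the condition means, ranged upward from 0.86 with a median of 0.96 over 45 pairs. Within the untreated arrays alone the lowest was 0.92, and within the RA arrays alone it was 0.10. These correlations share arrays and, for some pairs, near-identical sequence, and are given as a description.

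The SD over the untreated replicates was 1.70 to 2.28 on the log2 scale for the 10 genes, with a median of 2.06; the highest, of Tcstv1, includes the array on which it was not well above background. The median over all genes well above background on the untreated arrays was 0.28, and 27 of them (0.124%) had an SD above 2.06. The 10 genes were chosen for a wide spread between untreated replicates, so this share is a description only. Over the RA replicates the SD of the 10 genes was 0.63 to 0.98, with a median of 0.71, against 0.19 for all genes, and 3.37% of genes exceeded 0.71. The median over RA arrays rested on 1 array, and was 0.171 without RA replicate 4. Without that array the SD was 0.05 to 0.37 for 8 of the genes, 0.55 for Gm2022 and 0.65 for Tcstv1, which had 0.63 with it.

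**Figure D2:**
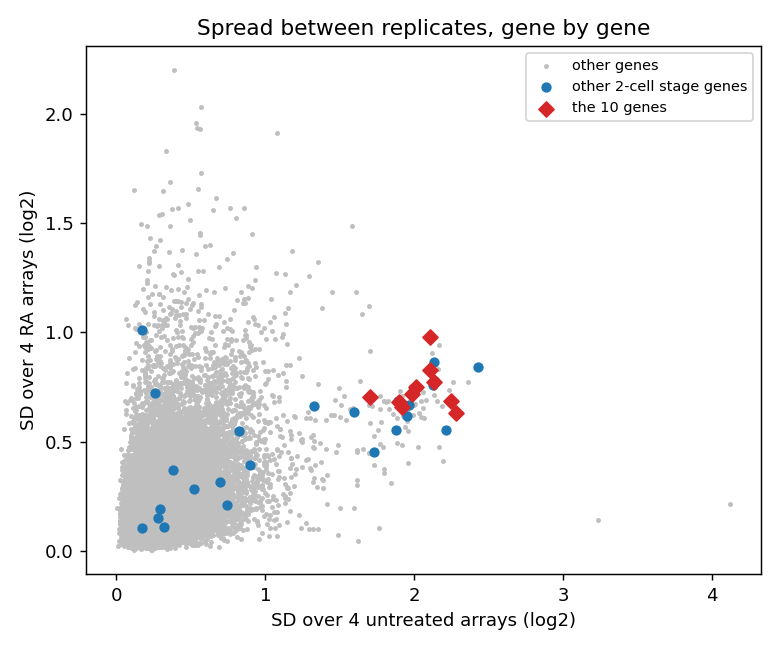
SD over the 4 untreated arrays (horizontal axis) against the SD over the 4 RA arrays (vertical axis), both on the log2 scale, for genes well above background on all 8 arrays and for the 10 genes. The 10 genes (diamonds) lie at 1.70 to 2.28 on the horizontal axis, where few other genes are, and at 0.63 to 0.98 on the vertical axis. They were chosen for a wide untreated spread.

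The number of spots well above background had the same order over the untreated arrays. It was 35393, 36655, 37175 and 33629 on untreated replicates 1 to 4, and 35034 to 35780 on the RA arrays. Untreated replicates 1 and 3 were on one slide and 2 and 4 on the other. Within the first slide Zscan4c differed by 3.79 between untreated replicates 3 and 1, and within the second by 3.15 between replicates 2 and 4, against 4.53 over all 4 arrays. Fibroblast and feeder markers, of which 5 of 10 were well above background on all 8 arrays, had a summed level of 0.18 and 0.23 on untreated replicates 1 and 4 and of 0.93 and 0.86 on replicates 2 and 3. The brightest of them, Thy1, carried most of this sum, with levels of -0.46, 0.55, 0.02 and -0.33 on untreated replicates 1 to 4, and 2 fainter ones, Col1a2 at -2.64, -2.13, -1.43 and -2.82 and Col1a1 at -3.82, -3.72, -2.15 and -4.22, had the order of the 10 genes. Dcn ran the other way, at -4.11, -5.25, -5.32 and -4.08. The part of spot counts, slide and these markers in the spread was not tested. Summed ES cell markers ran from 8.98 on replicate 3 to 9.43 on replicate 4, and primitive endoderm markers were highest on replicate 2 (4.70) and lowest on replicate 3 (3.30). Germline and oocyte markers summed to 3.72 on replicate 2 and to between 4.06 and 4.20 on the other untreated arrays.

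The mean was higher with RA for 9 of the 10 genes, which vary together over the arrays, so the 9 are not independent results. The groups overlapped for all 10. Of all genes, 40.5% had groups that did not overlap, but the 10 were chosen for a wide spread among untreated replicates, which favours overlap, so nothing is read from that count. The difference of the means (RA minus untreated) ran from -0.27 for Gm2022 to 1.46 for Tcstv3, with a median of 0.94 beside -0.28 for all genes. Among the others it was 1.21 for Zscan4c, 1.41 for Zscan4f, 1.40 for Dub1 and 0.04 for Gm8300. Some of these values depended on the probe. Gm2022 had 0.67 with its other probe and 0.20 when its probes were averaged, which left 10 of 10 genes higher with RA. Dub1 had -0.50 with its second probe and 0.45 when both were averaged. Gm8300 fell below 0 when the background was corrected with normexp, and quantile scaling moved the median of all genes to 0.00 and that of the members to 1.01. The member median rested on single untreated arrays: it was 1.88 without untreated replicate 3 and 0.28 without untreated replicate 4. It also differed between slides, at -0.02 on the slide of untreated replicates 1 and 3 and 1.93 on the other.

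Other transcripts that followed Zscan4c were sought among 4737 genes outside the 10 whose signal was well above background on every untreated array and which spanned at least 1 on the log2 scale there. Of these, 145 (3.06%) had a correlation of 0.9 or more with Zscan4c over the 8 deviations from the condition means, and 16 (0.338%) had one of -0.9 or less. Taken in each condition separately, 84 genes (1.77%) reached 0.9 in both. Same-numbered arrays may be paired, so the conditions are not independent of each other. Leaving out untreated replicate 2 gave 247 genes. The genes were chosen by this likeness, so their likeness carries no test.

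The most alike transcript was Zscan4a, with levels of 1.44, 3.93, 5.37 and 0.80 in untreated replicates 1 to 4 and of 4.15, 4.50, 4.86 and 2.88 with RA. Its correlation of 1.00 belongs beside the probe sequences above, since the probes of both genes differ at so few bases. Next came an unnamed transcript of the Zscan4 cluster (probe A_65_P06115), followed by BB287469 and LOC641136 with 0.998 each. BB287469, a further eIF1A relative, had levels of 0.83, 3.21, 4.62 and 0.02 without treatment and of 2.86, 3.22, 3.35 and 1.69 with RA. The other genes with names among the 10 most alike were A430089I19Rik (0.996), Gm11543 (0.995) and BB713741 (0.995), and the remaining 3 were the probes A_55_P2024835, A_55_P2107785 and A_55_P2074435 (0.995 to 0.997), which carry no gene name.

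The transcripts that moved most strongly the other way had much narrower ranges. Asap2, which encodes a GTPase-activating protein for Arf, had a correlation of -0.98 and levels of -1.13, -1.58, -2.07 and -1.01 without treatment. Cldn3, a tight junction claudin, had -0.96 and levels of 0.03, -0.43, -0.73 and 0.60. Both were lowest on untreated replicate 3, where the 2-cell stage genes were highest, but spanned only 2.08- and 2.52-fold. Calml4, a calmodulin-like gene (-0.95), 6720401G13Rik (-0.94) and a transcript named only by a position on chromosome 9 (-0.95) completed the 5 lowest. The last of these was not well above background on any RA array, so 4 of the 8 deviations behind its correlation are at background.

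Chromosomal position was not used to choose the following genes. Of the 145 genes that followed Zscan4c, 128 had a place on an assembled chromosome in mm9, and 52 of these (40.6%) lay in 12 loci where 3 or more members or following genes stood within 1 Mb of the next. A member or another following gene started within 1 Mb of 70 of the 128 (54.7%), and of 416 of the 4530 other variable genes with a position (9.18%). The locus with the most followers was chromosome 12 from 88.86 to 89.56 Mb, the home of Gm8300 and Gm2022, where 9 of 33 genes on the array followed Zscan4c, BB287469 and Gm2016 among them. In the Zscan4 locus on chromosome 7 from 11.38 to 11.99 Mb 5 of 12 followed, and on the stretch of chromosome 4 from 143.13 to 143.95 Mb, which holds genes of the Pramel family, 6 of 25. On chromosome 11 from 94.62 to 94.72 Mb, 6 of the 8 genes on the array followed. At these loci, in the order named, members and genes variable enough to be ranked numbered 14, 9, 9 and 6. The other genes there were not ranked and so could not follow. Genes at a locus are often copies of each other, so these counts are not of independent transcripts.

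**Figure D3:**
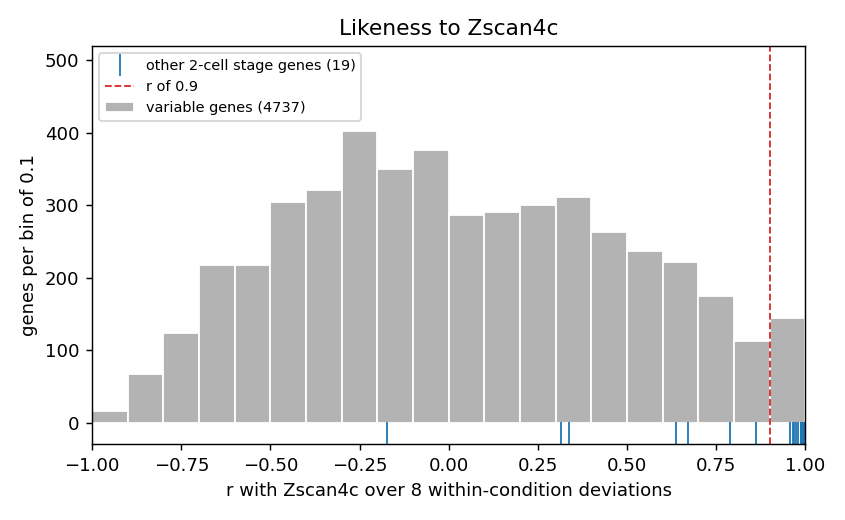
Number of genes per bin of 0.1 of the correlation with Zscan4c, over 4737 genes that vary among the untreated arrays; ticks under the bars mark 19 other 2-cell stage genes and the dashed line marks 0.9. The last bin holds 145 genes, and 12 of the 19 ticks lie in it.

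After RA, 10 of the 145 following genes (6.90%) passed the test as lower and 9 (6.21%) as higher, with a median difference of 0.61. Among the 4737 variable genes from which they came, 33.7% were called lower and 16.5% higher. The following genes were chosen to vary with Zscan4c among replicates, and their shares are given as a description. Over all 36406 genes, 22.1% were called lower and 13.9% higher by limma at an adjusted p under 0.05 and at least 1.5-fold. Of all calls 61.4% were lower on this scale and 51.1% after quantile normalization.

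A list of 79 other 2-cell stage genes had 42 on the array. It was drawn up with earlier results of these data known, so its counts are not independent of them. Of the 42, 19 were variable enough to be ranked, and 12 of these (63.2%) followed Zscan4c. Untreated replicates 2 and 3 were both above replicates 1 and 4 for 27 of the 42 genes (64.3%) and for 8.98% of all genes. The genes that followed included Zscan4e, Dub2a, Dub3, Gm428, Gm2016, Gm13043 and Gm13119, all named here after their values were seen, and the Dub2a probe shares most of its bases with that of Usp17l5. Zfp352, another early embryonic gene, did not: its levels were 3.17, 3.97, 2.16 and 2.97 without treatment and 2.08, 2.48, 2.14 and 2.02 with RA, and its correlation with Zscan4c was -0.17. Dux, which encodes the factor known to switch on this program, was dim, with levels of -4.74, -5.67, -4.06 and -4.58 without treatment, and it was well above background on 3 untreated and 2 RA arrays. With RA its levels were -6.03, -5.11, -6.53 and -5.67, and its difference of -1.07 was not called by limma (adjusted p = 0.059).

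Of the 42 listed genes, 7 were called lower with RA (16.7%), 2 higher (4.76%) and 33 neither, beside 22.1% and 13.9% of all genes, with a median difference of 0.27. None of the 7 that fell had a correlation of 0.9 or more with Zscan4c. Genes that follow Zscan4c vary widely among untreated replicates, which raises their SE and makes a call harder. Nothing is therefore read from this split. Fbxo15, a pluripotency-associated F-box gene, fell by 5.01 (SE 0.44, adjusted p = 4.41e-05), from levels of 6.35 to 6.75 to levels of 0.31 to 2.69. Duxbl, a relative of Dux, fell by 2.75 (SE 0.27, adjusted p = 8.3e-05), and Pramel6 fell by 2.81 (SE 0.73, adjusted p = 0.015). Pramel6 was well above background on only 2 RA arrays, and its difference was -1.47 with normexp and -1.26 with the deposited values, both still called. Smaller decreases were seen for Fgf1 (-1.73), C130073F10Rik (-1.46), Gm4858 (-1.35) and Piwil2 (-1.24). Of these, C130073F10Rik lost its call without untreated replicate 1 or without RA replicate 2, 3 or 4 (adjusted p up to 0.0663), and Gm4858 when all its probes were averaged. Pramel7, at -1.86, missed the threshold (adjusted p = 0.0553). It passed with the replicate block (adjusted p = 0.00375), the slide block (0.0294), the filter on dim probes (0.0336), normexp (0.0121, at a difference of -1.04) and without RA replicate 2 or 3, and its difference was -0.80 with the deposited values, not called.

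B020004J07Rik, now Pramel17, was 1 of the 2 called higher. It had levels of -7.30, -3.60, -2.14 and -6.53 in untreated replicates and of -1.15, -1.63, -1.45 and -2.14 with RA, a difference of 3.30 (SE 1.03, adjusted p = 0.0327), and was well above background on 2 untreated arrays. The difference was 1.46 with normexp and 1.63 with the deposited values. It lost its call with quantile normalization (adjusted p = 0.0533) and in 6 of the 8 fits that left out an array (adjusted p up to 0.0848). Rfpl4, the other, was not well above background on any untreated array and was so on 3 RA arrays. Its difference of 1.66 (SE 0.41, adjusted p = 0.0118) was therefore taken against background values and is not a lower bound. That call was lost with normexp, with or without quantile normalization, and with the deposited values, at differences of 0.20 to 0.42. Without untreated replicate 3, the array with the highest levels of these genes, 8 listed genes were called higher. Leaving out the highest array lowers the untreated mean and spread, so this rise in calls is not read as a result. The count was 1 without untreated replicate 1 or 4 and 2 without untreated replicate 2.

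**Figure D4:**
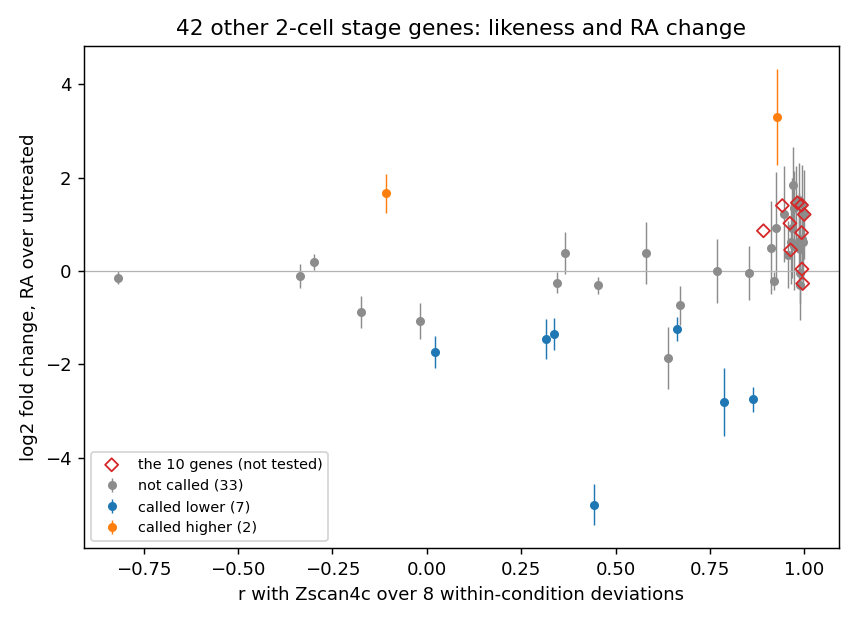
Correlation with Zscan4c (horizontal axis) against the log2 difference of RA over untreated (vertical axis, bars are the SE from limma) for 42 other 2-cell stage genes, with the 10 chosen genes as open diamonds and no test. The 7 genes called lower lie at correlations from 0.02 to 0.86, and 1 of the 2 called higher lies at 0.93. A wide untreated spread makes a call harder, so where the calls lie is a description only.

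Most of the listed genes reported to activate the 2-cell-like state fell with RA. Dux was counted above and is not in this list. Of 7 listed, 6 were on the array, and 4 were called lower, none higher (median difference -1.72), beside 22.1% lower and 13.9% higher over all genes. Dppa3, a maternal factor also called Stella, fell by 6 (SE 0.54, adjusted p = 4.74e-05), from levels of 1.92, 1.27, 2.79 and 2.43 to -3.74, -2.66, -3.91 and -5.28. Dppa2 fell by 2.75 (SE 0.25) and its partner Dppa4 by 2.40 (SE 0.18), and the T-box factor Tbx3 fell by 1.04 (SE 0.21), and the conditions did not overlap for any of the 4, as for 40.5% of all genes. Their correlation with Zscan4c was -0.21 to 0.28. Among untreated arrays Dppa2 ran only from 3.61 to 4.09 and Dppa4 from 3.64 to 3.97. Whsc2, at -0.31, and Patz1, at -0.25, were not called, and Whsc2 is also counted among the other 2-cell stage genes.

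**Figure D5:**
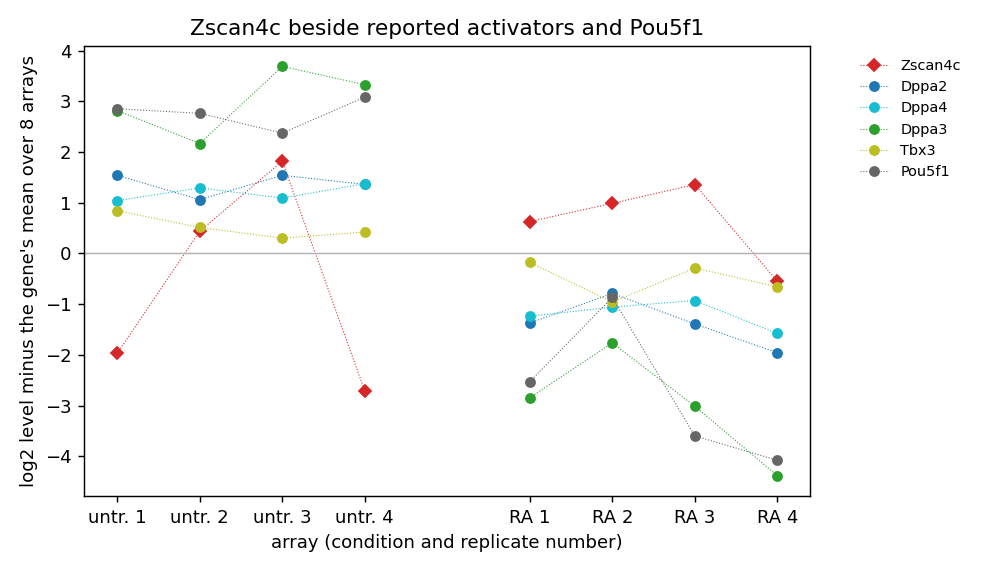
Level (log2, minus each gene's own mean over 8 arrays) of Zscan4c, of the reported activators Dppa2, Dppa4, Dppa3 and Tbx3, and of the pluripotency gene Pou5f1 on each array; dotted lines only join the points of 1 gene. The activators and Pou5f1 are lower on all RA arrays than on any untreated array, while Zscan4c on the RA arrays lies within its untreated range.

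Repressors of the state went in both directions. All 19 listed were on the array, 8 were called lower (42.1%), 5 higher (26.3%) and 6 neither, beside 22.1% and 13.9% of all genes, and the median difference was -0.55. Rif1, a telomere-associated repressor, fell by 1.84 (SE 0.15), L3mbtl2, a chromatin reader in a Polycomb-type complex, by 1.55 (SE 0.21), and its partner Mga by 1.22 (SE 0.18). Chaf1b, a subunit of the chromatin assembly factor CAF-1, and Trim28, a co-repressor of retroelements, each fell by 0.90, though Trim28 was not called when all its probes were averaged. E2f6, a repressor of germline genes, rose by 1.02 (SE 0.14, adjusted p = 0.000487). Within the untreated arrays 11 of the 19 repressors were lowest on replicate 3 (57.9%, against 37.8% of all genes well above background there), and 3, Rif1, Kdm1a and Zmym2, were highest on it (15.8%, against 20.6%). Chaf1b and Mga were among the 11, and on replicate 3 Chaf1b stood at 4.79 against 5.56 to 5.70 on the others.

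Telomere maintenance genes, included because Zscan4 acts at telomeres, fell or were not called. Of 19 listed, 17 were on the array, 9 were called lower (52.9%) and 0 higher, beside 22.1% and 13.9% of all genes, and the median difference was -0.76. Dkc1 and Nhp2, both parts of the telomerase ribonucleoprotein, fell by 1.56 (SE 0.23) and 1.35 (SE 0.16), and Terf1, a shelterin subunit, fell by 1.53 (SE 0.20). Daxx, a histone H3.3 chaperone, fell by 1.39 (SE 0.18), and the meiotic genes Smc1b and Dmc1 by 1.38 (SE 0.21) and 1.27 (SE 0.19). Among untreated arrays their median SD was 0.27, and the 1 gene variable enough to be ranked did not follow Zscan4c.

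Marker genes separated the conditions, and their counts stand beside 22.1% of all genes called lower and 13.9% higher. All 9 ES cell markers on the array were called lower, with a median difference of -4.55, among them Pou5f1 (-5.54), Nanog (-4.55), Esrrb (-5.75) and Tdgf1 (-6.30). Nanog was at -2.02 when all its probes were averaged, still called. All 10 primitive endoderm markers were called higher, with a median of 3.16, and 7 of 10 fibroblast and feeder markers were called higher. RA replicate 2 kept the highest summed ES cell marker level, 6.94 against 5.53 to 6.17 on the other RA arrays, and RA replicate 4 had the lowest. Germline and oocyte markers were split, with 5 lower and 4 higher of 10. Zp3, a zona pellucida gene, fell by 4.38 (SE 0.37). Tex101 (-3.56) and the meiotic genes Sycp3 (-2.77) and Sycp1 (-1.34, or -0.87 with the deposited values) were also called lower, while Stra8, a known RA target of germ cells, rose by 2.71 (SE 0.58) and Ddx4 by 1.82 (SE 0.22).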

How the data were processed

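Cy3-labelled RNA of 8 samples was hybridised to 1-colour Agilent arrays, 1 array per sample, on 2 slides. The authors deposited scanner output from Agilent Feature Extraction 10.7.3.1 (per the file headers), with an intensity per spot that was detrended but not normalized between arrays, and other columns with flags of 0 or 1 that mark signal well above background, saturation and outliers. A table from the authors holds log2 values of the same spots with an equal distribution on all arrays; their background correction and normalization are not given in the sources used here. Probe positions are on mm9.

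In R 4.3.3, log2 of the processed intensity minus each array's 75th percentile over 59305 spots was used. The 3671 control spots and 124 to 145 outlier spots per array were left out, no spot was saturated, and spots of a probe were averaged. A gene was represented by its brightest probe on average. Gene names are those of the array; the accessions of all 10 genes were matched to RefSeq. RA and untreated arrays were compared in limma 3.58.1 (lmFit, eBayes), with Benjamini-Hochberg adjustment over 55681 probes, after the code was tested on simulated data. Calls needed an adjusted p under 0.05 and 1.5-fold. A gene followed Zscan4c at a Pearson correlation of 0.9 or more over the deviations from the condition means. The number of arrays limits the precision.

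The members and lists were chosen with earlier results of these data known. Genes named are the 10 members, the 10 most and 5 least alike to Zscan4c, the 8 largest decreases and 3 largest increases among other 2-cell stage genes that were well above background on 3 arrays of a condition, and up to 6 of each other list by size of change, of which the marker lists are given in part; Zfp352, Dux, Kdm1a, Zmym2 and some followers were named after their values were seen. A further gene that the rule would name is not reported here. Replicate numbers are shared between conditions. Deviations of same-numbered arrays correlated at 0.187, 0.189, 0.104 and 0.152 over 27508 probes (highest between other numbers 0.142), and since all 4 exceed 0.1, same-numbered samples were treated as pairs in the blocked fit. Alternatives were other scaling, background correction, the deposited log2 values, a filter on dim probes, slide or replicate as a block, another probe rule, no fold threshold and each array left out in turn.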

Additional observations from a re-analysis of the deposited data

Results flagged for a closer look

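Single arrays stood apart from the other 3 of their condition in 9 of 154 groups of 4 values examined; 7.7 are expected by chance, and genes that move together are not independent. RA replicate 4 was low for Zscan4f (4.17 against 5.42 to 5.57), Dub1 (-0.41 against 0.85 to 1.10), Dub1a (-0.73 against 0.71 to 0.81) and BB713741 (2.05 against 3.28 to 3.46). Untreated replicate 3, the array with the highest 2-cell stage levels, was low for Chaf1b (4.79 against 5.56 to 5.70) and Zfp42 (6.34 against 6.56 to 6.58). Rif1 was lowest on untreated replicate 2 (4.36 against 4.51 to 4.54), Foxa2 was highest on untreated replicate 1 (0.01 against -1.04 to -0.91), and Col4a2 was highest on RA replicate 1 (3.54 against 3.26 to 3.31).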

How the results depend on the processing

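The count of other 2-cell stage genes called higher, 2 in all, was 1 with quantile normalization, normexp, both together, the deposited log2 values or only probes well above background, and ran from 1 to 8 when an array was left out; the count called lower was 6 to 9 throughout. Probes called lower numbered 12044, and 6603 with normexp and quantile normalization or 6583 with the deposited values. The members' median SD over the RA arrays, 0.709, ran from 0.171 to 0.845 when an array was left out, and over the untreated arrays from 1.560 to 2.440. Their median difference ran from 0.284 to 1.880, and 7 to 10 of them had the higher mean with RA. Genes following Zscan4c, 145 in all, ran from 121 to 247 when an array was left out and numbered 276 on the untreated arrays alone and 250 on the RA arrays alone, an alternative chosen after seeing the data. With the replicate block, 9 listed genes were called lower and 3 higher, with 12161 probes lower and 7223 higher, and the pairing changed the call of no other gene named by the rule than Pramel7. No named gene with a call changed direction under any alternative. Where a call was lost, the cause was not tested.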
